A study of Mus musculus with 6 samples.

Results

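Red blood cells owe their shape and stability to a membrane skeleton of spectrin that is tied to transmembrane proteins through ankyrin and protein 4.1. Anion exchange, gas and ammonium transport and water flow pass through the same membrane proteins. Most of these genes are switched on during erythroid maturation, while the erythropoietin receptor, which keeps erythroid progenitors alive, acts earlier. LDB1 is an adaptor protein that in erythroid cells joins GATA1, TAL1 and LMO2 at DNA.

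The genes described here were 8 of 18193 with a probe set of their own on the array. Slc4a1 encodes the anion exchanger band 3, Rhag the Rh-associated glycoprotein, Gypc the sialoglycoprotein glycophorin C and Aqp1 a water channel. Ank1 encodes ankyrin 1, Sptb the beta chain of spectrin, Epor the erythropoietin receptor and Car2 the cytosolic enzyme carbonic anhydrase 2. They were chosen by name, and every probe set annotated to exactly 1 gene, that gene being one of them, was taken, which gave 14 probe sets. A gene read by several probe sets is given first by its brightest, judged by the mean of all 6 arrays. In GRCm38.p6 coordinates the genes lie on 8 different chromosomes: Slc4a1 on chromosome 11 at 102348820 to 102365281, Rhag on 17 at 40811099 to 40844094, Gypc on 18 at 32528320 to 32560034 and Aqp1 on 6 at 55336299 to 55348555. Ank1 lies on 8 at 22974836 to 23150501, Sptb on 12 at 76580488 to 76710547, Epor on 9 at 21958897 to 21963576 and Car2 on 3 at 14886269 to 14900770.

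The study compared Ldb1+/+ (wild-type) with Ldb1-/- (knockout) mouse embryonic stem cells. Both were grown in suspension, without leukaemia inhibitory factor, into embryoid bodies, clumps of differentiating cells. At day 4 the Flk1+ blast colony-forming cells, used as an in vitro stand-in for the haemangioblast (the precursor of blood and vessels), were isolated, and their RNA was hybridised to Mouse Genome 430 2.0 arrays, 3 biological replicates (numbered 1 to 3) per genotype. The labels name neither the deleted part of Ldb1 nor the number of stem cell clones behind each genotype, nor what the replicate numbers stand for.

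The labelled sort and the genotype were checked first. Kdr, the gene of Flk1, read 12.12 ± 0.33 in wild-type and 11.70 ± 0.44 in knockout arrays (log2 level, SD, n = 3 each). Ldb1 itself read 7.78, 7.31 and 8.31 in wild-type and 7.25, 6.60 and 8.25 in knockout arrays, groups that overlapped, so its probe set does not check the genotype. Of 8 erythroid marker genes 7 were measured, and 3 of these had a mean over 5.75, the median of all probe sets. Their mean level ran from 6.12 to 6.20 in wild-type and from 4.82 to 5.00 in knockout arrays. The pair of replicate 3 arrays differed from the rest in control probe sets: the 3′ probe set of 18S ribosomal RNA read 11.93 and 12.10 there and from 8.51 to 9.39 elsewhere. The 5′ probe set of Gapdh read 12.93 on both and from 10.19 to 11.11 elsewhere. That of beta-actin read 12.97 and 13.22, and from 11.19 to 11.49 elsewhere. Their 3′ probe sets ran from 14.37 to 14.49 and from 14.20 to 14.51 over all 6 arrays. The cause was not tested. Wild-type replicate 3 alone had a raised lower quartile, 4.37 against 4.22 to 4.28 in the other 5 arrays, and a lowered upper quartile, 7.92 against 8.15 to 8.27.

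The sequence just before the transcription start was available for 4 of the 8 genes, Aqp1, Epor, Sptb and Rhag (RefSeq, GRCm38.p6). Epor and Rhag are shown because their 250 bases held a GATA motif, the letters that GATA factors such as GATA1, a partner of LDB1, are known to read. The motifs searched on both strands were GATA (these letters with A or T before and A or G after them), the E-box CANNTG, read by TAL1 and its relatives, and CCNCACCC, read by factors of the KLF family. These letters were found in 26.5%, 66.2% and 14.9% of 32851 such 250-base stretches. Capitals mark GATA and CCNCACCC matches, 5′ to 3′ on the strand of the gene.
Epor, chr9:21963577-21963826, minus strand: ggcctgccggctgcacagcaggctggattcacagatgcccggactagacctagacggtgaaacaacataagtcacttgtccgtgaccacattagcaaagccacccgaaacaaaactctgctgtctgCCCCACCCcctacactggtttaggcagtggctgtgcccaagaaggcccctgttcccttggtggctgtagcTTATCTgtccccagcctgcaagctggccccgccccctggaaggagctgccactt
Rhag, chr17:40811106-40811135, plus strand: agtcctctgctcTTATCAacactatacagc
In Epor the GATA match (TTATCT, read on the other strand) stood 54 to 49 bases before the start, the CCNCACCC match 124 to 117 bases before it, and 2 E-boxes lay further out. In Rhag the GATA match stood 31 to 26 bases before the transcript start that the sequence table uses, 40811149, and neither other motif was found. That start lies 50 bases inside the span given for the gene, so the match falls after the first base of that span. Aqp1 held 1 CCNCACCC match and 1 E-box, and Sptb 1 E-box. A match is a stretch of letters and shows no binding.

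None of the 8 genes passed the test between genotypes, with or without the replicate number in the model. Gypc was the 1 gene whose groups did not overlap, at a level 1.72-fold lower in knockout arrays, and Car2 was 1.56-fold higher on average. The other 6 differed by at most 0.13 on the log2 scale. In limma without a block, 0 of 8 had an adjusted p under 0.05, where 0.0220% of all genes did (4 of 18193, all lower). With the replicate number as a block, 0 of 8 passed, where 0.341% of all genes did (62 of 18193). At an unadjusted p under 0.05 there were 2 of 8, Gypc and Car2, in either fit, where all genes gave 3.85% without and 8.94% with the block. The median difference over the 8 genes was −0.031, beside −0.015 over all genes, and 5 were lower and 3 higher.

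**Figure D1:**
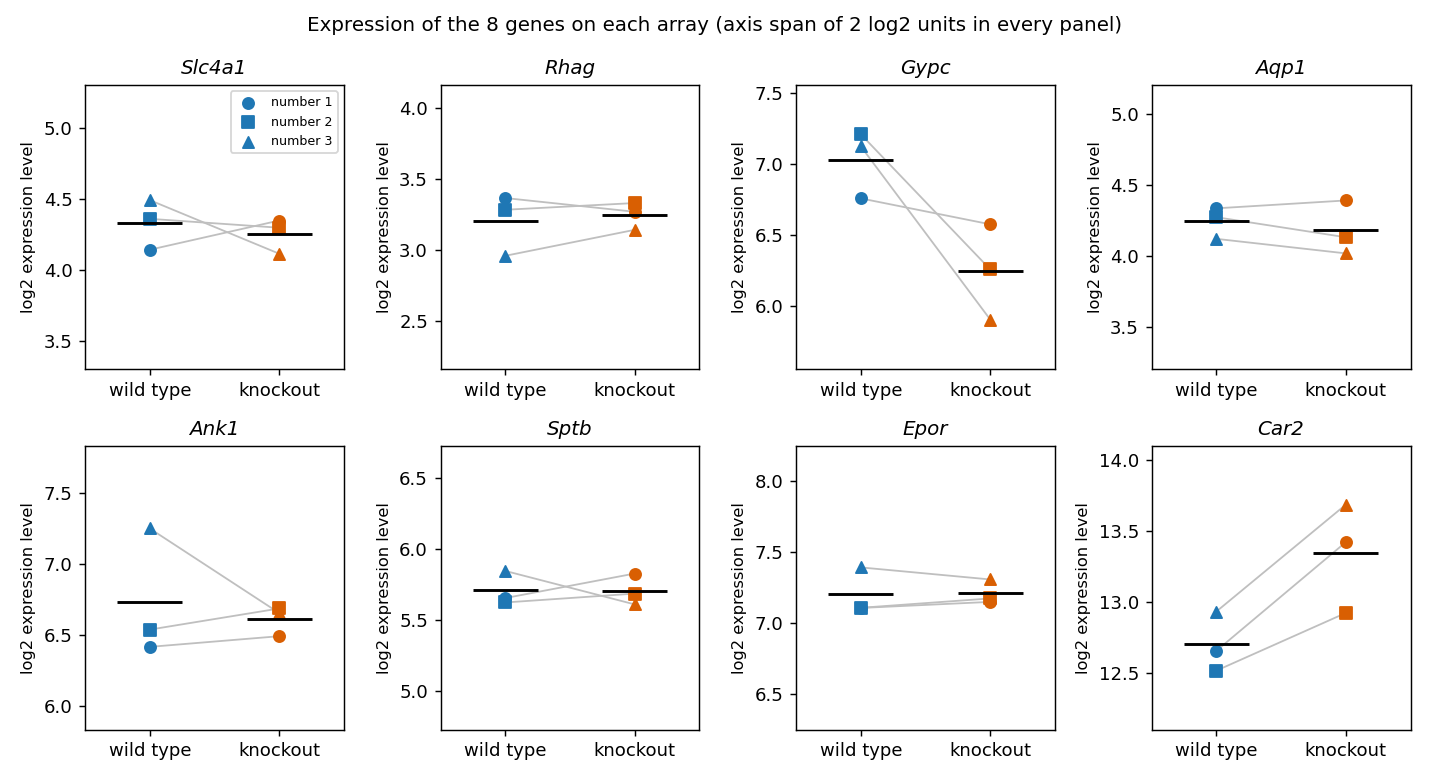
Log2 expression level of each gene (probe set with the highest mean) on the 6 arrays. Blue symbols are wild-type and orange symbols knockout arrays, the symbol shape gives the replicate number, grey lines join arrays of the same number and black bars are group means (n = 3). Gypc reads lower and Car2 higher in the knockout array on all 3 lines, and in the other panels the lines differ in direction.

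Gypc, whose product anchors protein 4.1 at the red cell membrane, read 6.76, 7.21 and 7.13 in wild-type replicates 1 to 3. In knockout replicates 1 to 3 it read 6.58, 6.26 and 5.90. Every knockout array lay below every wild-type array, the narrowest gap being that between the arrays of number 1, and the knockout arrays spread more widely. Groups that did not overlap in either direction were found for 7.92% of all genes, so that 1 of 8 is near that share. The means were 7.03 ± 0.24 and 6.25 ± 0.34 (SD, n = 3), a difference of −0.78 (SE 0.21, 95% interval −1.29 to −0.28). It did not pass in limma (adjusted p = 0.788 without and 0.279 with the block). The exact two-sided permutation test gave 0.1, the smallest p that 3 arrays against 3 can reach. By number the knockout array was lower by 0.18, 0.95 and 1.22.

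The mean level of the erythroid markers, given above, was lower in every knockout than in every wild-type array, as was Gypc. Of the 7 measured, Hbb-bh1, a globin gene of the embryo, fell in both fits (8.84 ± 0.23 to 4.94 ± 0.39, SD, n = 3; limma adjusted p = 0.00494 without the block). Gata1, an erythroid transcription factor gene, fell with the block (7.58 ± 0.09 to 6.27 ± 0.10, blocked limma adjusted p = 0.0194) but did not pass without it (0.0542). Hbb-y, another embryonic globin gene, likewise passed with the block alone (difference −1.71, blocked limma adjusted p = 0.0251, unblocked 0.274). Klf1, another erythroid transcription factor gene, read 5.92 ± 0.35 and 5.63 ± 0.09. The part of erythroid cell number in the Gypc values was not tested. In RNA of a sorted population, fewer cells of a type and less RNA per cell cannot be told apart.

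Markers of other cell types gave no call without the block, and with it the cardiac mesoderm marker Hand2 fell by 2.70 on the log2 scale (blocked limma adjusted p = 0.00103). The mean level of 7 endothelial genes ran from 6.43 to 6.61 in wild-type and from 5.58 to 6.93 in knockout arrays. Of these, Cdh5 read 7.32, 7.13 and 4.49 and Tek 7.55, 8.09 and 4.76 in knockout replicates 1 to 3. Kdr and Emcn were not lowest in knockout replicate 3. For 5 genes of undifferentiated embryonic stem cells the ranges were 7.88 to 8.19 and 7.97 to 8.42. Of these, Pou5f1 read 9.65, 8.85 and 10.82 in knockout replicates 1 to 3. Nanog was likewise highest in knockout replicate 3, at 9.26. Zfp42, Esrrb and Klf4 had their lowest knockout value in replicate 3. Zfp42 was higher by 0.78 in knockout arrays, with groups that did not overlap (blocked limma adjusted p = 0.122). Pou5f1 and Nanog differed by 0.47 and 0.31, and Esrrb and Klf4 by −0.29 and −0.52, all with overlap. For 5 cardiac mesoderm genes the ranges were 8.21 to 8.82 and 7.70 to 8.12. For 4 of 5 megakaryocyte genes measured the ranges were 6.23 to 6.42 and 5.96 to 6.01. The mean levels of the cardiac mesoderm and of the megakaryocyte genes were lower in every knockout array, as was Gypc. Among the cardiac mesoderm genes other than Hand2, Mesp1 and Nkx2-5 differed by −0.55 and −0.081. Tnnt2 and Isl1 differed by 0.23 and 0.0058, and the groups overlapped for each of these genes beside Hand2. Among the megakaryocyte genes Itga2b, on chromosome 11, differed by −0.90, and Pf4, Gp1bb and Gp9 by −0.23, −0.16 and −0.049. The groups overlapped for Gp1bb and Gp9. For 6 leukocyte genes the ranges were 5.38 to 5.47 and 5.32 to 5.42, and for 6 visceral endoderm genes 5.05 to 5.46 and 5.03 to 5.12. Their part in the values of the 8 genes was not tested.

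Car2, whose enzyme converts carbon dioxide and water to bicarbonate, read far above the array medians, between 5.71 and 5.77. Its levels were 12.66, 12.52 and 12.93 in wild-type and 13.42, 12.93 and 13.69 in knockout replicates 1 to 3. Knockout replicate 2 lay just under wild-type replicate 3, so the groups overlapped, while the other 2 knockout arrays lay above all wild-type arrays. The means were 12.70 ± 0.21 and 13.35 ± 0.39 (SD, n = 3), a difference of 0.64 (SE 0.22, 95% interval 0.11 to 1.18). It did not pass in limma (adjusted p = 1.00 without and 0.174 with the block), and the exact two-sided permutation p was 0.2. Knockout was higher by 0.77, 0.41 and 0.75 within numbers 1, 2 and 3. Without both arrays of number 3, an alternative chosen after seeing the data, the difference was 0.59 and passed with the block (blocked limma adjusted p = 0.0325), in a fit in which 815 genes passed in all. The knockout array lay on the same side in all 3 numbers for 2 of the 8 genes, Gypc and Car2, and for 28.4% of all genes.

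**Figure D2:**
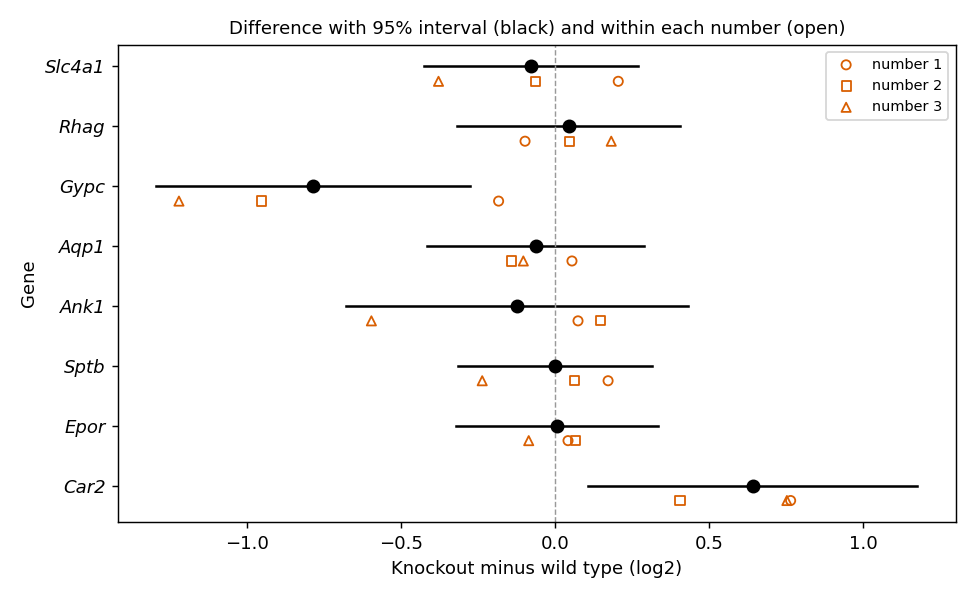
Difference of knockout minus wild type on the log2 scale for each gene, with its 95% interval from the limma fit without a block (black, n = 3 per genotype) and the difference within each replicate number (open orange symbols). The intervals of Gypc (−1.29 to −0.28) and Car2 (0.11 to 1.18) leave out 0 before adjustment for the number of genes, and those of the other 6 genes include it.

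Epor read nearly the same in both genotypes. Its values were 7.10, 7.10 and 7.39 in wild-type and 7.15, 7.17 and 7.30 in knockout replicates 1 to 3. The replicate 3 arrays were the higher ones in both genotypes, and the groups overlapped. The difference was 0.0079 (SE 0.14, limma adjusted p = 1.00), with a 95% interval from −0.32 to 0.34. Its promoter stretch, with GATA and CCNCACCC letters, is printed above.

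The skeleton genes Ank1 and Sptb did not pass the test. Ank1, which links spectrin to band 3, read 6.42, 6.54 and 7.25 in wild-type and 6.49, 6.69 and 6.66 in knockout replicates 1 to 3. Wild-type replicate 3 stood above the other 5 arrays, and without it the difference turned from −0.12 (95% interval −0.68 to 0.43, limma adjusted p = 1.00) to 0.13. By number it was 0.075, 0.15 and −0.60. The other 3 Ank1 probe sets had means of 5.43, 4.74 and 3.89 and differences of −0.047, −0.0085 and −0.22. Sptb read 5.65, 5.62 and 5.84 in wild-type and 5.82, 5.68 and 5.61 in knockout replicates, a difference of −0.00021 with a 95% interval from −0.32 to 0.31 (limma adjusted p = 1.00). Its values overlapped throughout and sat at the median of all probe sets. Its other probe set, with a mean of 5.13, differed by −0.025.

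The transport genes Slc4a1, Rhag and Aqp1 read low on every array of both genotypes. Slc4a1 read 4.15, 4.36 and 4.49 in wild-type and 4.35, 4.30 and 4.12 in knockout replicates 1 to 3. The difference of −0.078 (95% interval −0.43 to 0.27) was smaller than the spread within either genotype. Its other 2 probe sets, with means of 3.94 and 3.55, differed by 0.059 and −0.091. Rhag, the gene whose promoter window is shown above, read 3.36, 3.28 and 2.96 in wild-type and 3.27, 3.33 and 3.14 in knockout replicates. All 6 values lay below the arrays' lower quartiles, and the difference was 0.044 (95% interval −0.32 to 0.41). Aqp1 read 4.33, 4.27 and 4.12 in wild-type and 4.39, 4.13 and 4.02 in knockout replicates, close to those quartiles. It differed by −0.063 (95% interval −0.41 to 0.29), and adjusted p in limma was 1.00 for all 3 genes. No detection call per probe set was used here, so these levels do not say whether the transcripts were present.

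Most of the dim probe sets were highest on the same array. Of the 14 probe sets 10 had means below the median level of all probe sets, and 7 of these 10 were highest on wild-type replicate 3, the array with the raised lower quartile. Among all 15555 dim probe sets with 1 gene, 38.4% were highest there, more than on any other array. Over the 14 probe sets, wild-type replicate 3 was the highest for 9 and knockout replicate 3 the lowest for 6. Over all 34945 probe sets with 1 gene, these shares were 23.7% and 20.5%. The most negative differences of Slc4a1, Ank1 and Sptb were those of number 3. The median difference over the 8 genes was 0.065, 0.055 and −0.17 within numbers 1, 2 and 3. Over all genes it was −0.00099, 0.0036 and −0.017, and over all genes above the median level −0.046, −0.028 and 0.12. Of the 8 genes, 4 had means above that level.

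**Figure D3:**
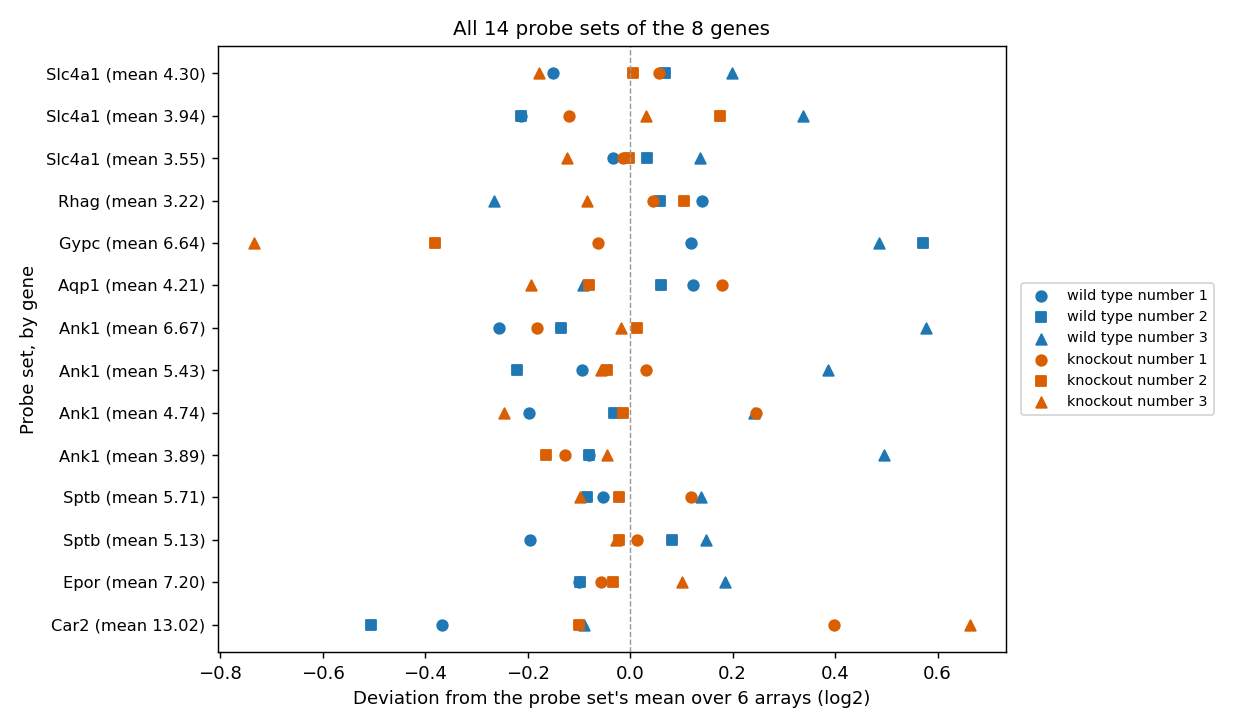
Each row is a probe set of the 8 genes, labelled with its mean log2 level over 6 arrays, and each symbol an array, placed by its deviation from that mean on the log2 scale (blue wild type, orange knockout, shape by replicate number). The blue triangles of wild-type replicate 3 lie furthest right in 9 of the 14 rows. In the Gypc row blue and orange symbols are apart.

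The chromosomes of 2 of the genes were shifted as a whole. Among genes above the median level the median difference was 0.26 over 606 genes of chromosome 8, which carries Ank1, and −0.23 over 949 genes of chromosome 11, which carries Slc4a1. Those of the chromosomes of the other 6 genes, Gypc and Car2 among them, were at most 0.028 in size. Of other genes named in the text, Piezo1, Gab1, Ier2, Gipc1, Cdh5 and Zfp42 on chromosome 8 were higher on average in knockout arrays. Hand2, Irs2 and Klf1, also on chromosome 8, were lower. On chromosome 11 Car4, Stat5b, Itga2b and Sptbn1 were lower. The part of these shifts in the values of any of these genes, Ank1 and Slc4a1 included, was not tested.

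The array profiles nearest to those of Gypc and Car2, the genes whose values spanned more than 1 on the log2 scale, were taken by root mean square distance between centred values over the 6 arrays. For Gypc these were Tbc1d8, a gene of the TBC domain family (distance 0.12), and Tspan33, a tetraspanin gene (distance 0.12). Tbc1d8 read 6.66, 6.86 and 6.76 in wild-type and 6.33, 6.20 and 5.75 in knockout replicates. For Car2 they were Ier2, an immediate early gene (distance 0.11), and Gipc1, a PDZ domain gene (distance 0.12). Ier2 and Gipc1 lie on chromosome 8, whose shift is given above, while Car2 does not. Ier2 read 10.13, 10.14 and 10.51 in wild-type and 10.92, 10.36 and 10.97 in knockout replicates. None of these 4 genes passed in limma in either fit. The distance picks genes that differ between the arrays in the same way, genotype and number together.

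Other genes of the red cell membrane gave no call in either fit. Of 42 listed, 38 were measured, and 0 passed in limma with or without the block. At an unadjusted p under 0.05 there were 4 without the block and 6 with it, where all genes gave 3.85% and 8.94%. Groups did not overlap for 4 of the 38, where all genes gave 7.92%. The median difference of the 38 genes was −0.0083, with 20 lower and 18 higher. Cd44, a hyaluronan receptor gene, read 8.36, 8.50 and 7.96 in wild-type and 9.23, 9.30 and 8.66 in knockout replicates, groups that did not overlap, with a difference of 0.79 (limma adjusted p = 0.891 without and 0.0849 with the block). Cd59a, a complement inhibitor gene, differed by 0.52 (9.18 ± 0.17 and 9.70 ± 0.15, SD, n = 3; blocked adjusted p = 0.308). Cd55, a complement inhibitor gene singled out after its values were seen, had a mean of 5.52, below the median of all probe sets. It read 6.27, 6.30 and 5.35 in wild-type and 5.07 in all 3 knockout arrays (SD 0.0017). The difference was −0.91 (blocked limma adjusted p = 0.207). Cd55 and Gab2 in knockout replicate 3 and Afp, a visceral endoderm gene, in knockout replicate 2 all read 5.0652. Whether this repeated value is a background value was not tested. Stom, the gene of stomatin, differed by −0.38 without overlap, and Piezo1, a mechanosensitive channel gene on chromosome 8, by 0.58 with overlap. Tpm1, the actin-binding tropomyosin gene, and Slc2a1, the glucose transporter gene, stood at 0.42 and −0.50, Rhd, the Rh antigen gene, at −0.20 and Bsg, the gene of basigin, at −0.16. Tpm3, Slc16a1, a lactate transporter gene, and Tfrc, the transferrin receptor gene, had the highest means of the list, 12.87, 12.63 and 12.28, and differences of 0.12, −0.065 and 0.12. The other 4 were not analysed here.

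Among paralogues of the 8 genes, 1 of 27 measured passed with the block and 0 without it. Car12, the gene of a membrane-bound carbonic anhydrase, read 8.32, 8.27 and 7.36 in wild-type and 6.26, 6.99 and 6.09 in knockout replicates. All knockout arrays lay below all wild-type arrays. The difference was −1.53 (7.98 ± 0.54 to 6.45 ± 0.48, SD, n = 3; blocked limma adjusted p = 0.0334, unblocked 0.550). With the block it passed without the arrays of number 1, 2 or 3 as well (blocked limma adjusted p = 0.0439, 0.000465 and 0.000133). In those fits, added after seeing the data, 50, 267 and 815 genes passed in all. Without the block Car12 passed in no alternative run for it, and with its probe sets averaged the difference was −0.60. Car4, another membrane-bound carbonic anhydrase gene, read 10.36, 10.77 and 10.72 in wild-type and 9.07, 10.16 and 9.97 in knockout replicates. Its groups did not overlap either, with a difference of −0.88 (blocked adjusted p = 0.123), and it lies on chromosome 11. Car3 and Car14 differed by 0.47 and 0.13. Among these carbonic anhydrase genes, Car2 was thus higher on average and Car12 and Car4 were lower, and Car12 was the 1 called, with the block.

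The paralogues of the other genes were not called. Ank2 read 7.14 ± 0.73 and 6.25 ± 0.79 (difference −0.89, blocked adjusted p = 0.0910), lower in all 3 numbers. Sptbn1 and Sptan1, spectrin genes of most cell types, read 12.36 ± 0.52 and 12.32 ± 0.40, and 12.05 ± 0.38 and 12.07 ± 0.39. The anion exchanger and bicarbonate transporter genes Slc4a2, Slc4a3 and Slc4a4 differed by 0.37, 0.30 and 0.21. Aqp11 differed by −0.39. Over the 27 paralogues measured the median was −0.095, with 16 lower and 11 higher. At an unadjusted p under 0.05 there were 2 without the block and 5 with it, where all genes gave 3.85% and 8.94%. Groups did not overlap for 4 of the 27, where all genes gave 7.92%.

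Genes of erythropoietin signalling beside Epor were not called in either fit. Of 21 listed besides Epor, 17 were measured, with a median of −0.070, 9 lower and 8 higher. At an unadjusted p under 0.05 there were 0 without the block and 4 with it, where all genes gave 3.85% and 8.94%. Groups did not overlap for 1 of the 17, where all genes gave 7.92%. Jak2, the kinase bound to the receptor, read 9.67, 9.72 and 8.72 in wild-type and 10.17, 9.94 and 9.80 in knockout replicates. The groups did not overlap, and the difference was 0.60 (blocked limma adjusted p = 0.363). Stat5b, a transcription factor gene activated by JAK2, read 8.44 ± 0.63 and 7.79 ± 0.65, a difference of −0.65 (blocked adjusted p = 0.123), and lies on chromosome 11. Gab1, an adaptor gene on chromosome 8, differed by 0.93 (blocked adjusted p = 0.159). Irs2, an adaptor gene also on chromosome 8, differed by −0.58. Gab2, a further adaptor gene, differed by −0.28 and read 5.0652 in knockout replicate 3, the repeated value given above. Ptpn6, a phosphatase gene, differed by −0.18, Sh2b3, an inhibitor of JAK2 signalling, by 0.19 and Socs2, a feedback inhibitor gene, by 0.29.

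**Figure D4:**
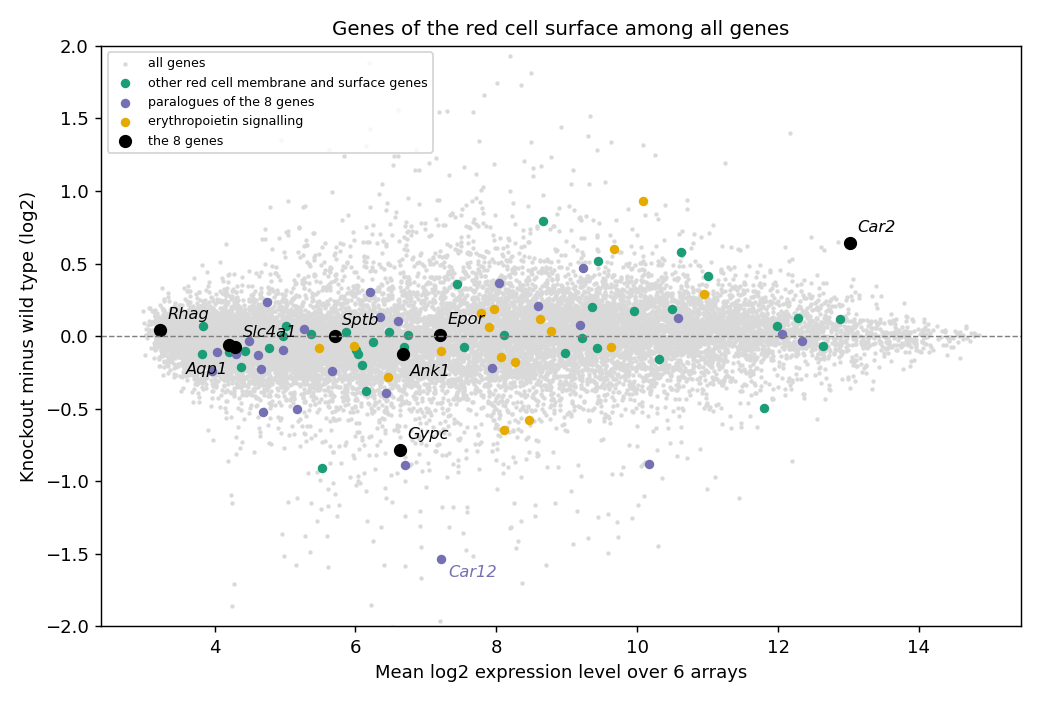
Difference of knockout minus wild type (log2) against the mean log2 level over 6 arrays for 18193 genes (grey) and the listed genes (coloured, one point per gene), with the 8 genes in black. The vertical axis ends at 2 in either direction, which leaves out 16 genes. Gypc at −0.78 and Car2 at 0.64 lie away from the 0 line, the other 6 genes lie near it, and Car12 at −1.53 is the lowest listed gene.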

How the data were processed

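RNA of Flk1+ cells was measured on 6 arrays, which were grouped by the genotype in their titles. The table the authors deposited holds log2 levels, 1 value per probe set and array. The tools listed in the submitters' processing notes are RMA and affy, without versions. Of 45101 probe sets, 34945 had exactly 1 gene in the array annotation, and symbols were updated through RefSeq gene IDs. The probe set with the highest mean was kept for each of 18193 genes.

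Knockout and wild type were compared with limma 3.58.1 (lmFit and eBayes) in R 4.3.3, with Benjamini-Hochberg adjustment over all genes and a threshold of 0.05. The replicate number was added as a block in another fit. Deviations from the genotype means of arrays with the same number correlated at 0.707, 0.322 and 0.456, each above the limit of 0.1, so the numbers were treated as pairing the arrays. Intervals are not adjusted for the number of genes. The fits were tested on simulated data. Plots were made in Python 3.11.15 (matplotlib 3.10.9).

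Named were every one of the 8 genes, and of each of 3 lists (other red cell membrane genes, paralogues, erythropoietin signalling) the called genes, up to 4 with the largest and 4 with the smallest difference above the median level, and the 3 with the highest mean. The genes and lists were chosen with earlier results of these data known. The labels call the replicates biological without saying what separates them, so p-values measure the spread between these arrays, whose number limits the precision. Alternatives were the block, each array left out, dim probe sets left out, repeated quantile normalisation, subtracted array medians, a trended robust prior, array weights, other choices of probe set and a fold limit of 2, with both arrays of a number left out added after seeing the data.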

Additional observations from a re-analysis of the deposited data

How the results depend on the processing

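The number of the 8 genes past the threshold was 0 in 23 of 24 alternatives, the exception being the replicate block without both arrays of number 3, where Car2 passed (1 gene). With the fold limit none could pass, since none of the 8 genes differed 2-fold. Gypc stayed lower, from −1.09 to −0.57, and Car2 higher, from 0.47 to 0.85, in all alternatives run. The median over the 8 genes ran from −0.10 to 0.063. For the other genes, whose differences lie near 0, 29 of 140 values changed direction, none past the threshold, and the cause was not tested. Some of the 140 could not change, since the block, the trended prior and the fold limit leave the difference as it is. Each pair of arrays left out counts with and without the block. Without wild-type replicate 3 the differences were 0.13 for Ank1, 0.069 for Sptb, 0.0020 for Slc4a1 and −0.077 for Rhag, and without both arrays of number 3 they were 0.11, 0.12, 0.072 and −0.025, with or without the block. Array weights gave 0.094 for Ank1, 0.058 for Sptb and −0.00261 for Rhag. With 1 array left out in turn, Epor ran from −0.041 to 0.10, Ank1 from −0.28 to 0.13, Sptb from −0.060 to 0.069, Slc4a1 from −0.17 to 0.0020, Aqp1 from −0.17 to 0.018 and Rhag from −0.077 to 0.13. Epor stood at −0.054 with quantile normalisation repeated, at −0.00950 without the arrays of number 1 and at −0.021 without those of number 2. Slc4a1 was 0.059 with its probe set of largest SD, with probe sets that can bind several transcripts left out, and in its probe set with a mean of 3.94 taken as its own feature.

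The count over all genes, 4 without the block, was 62 with the replicate block, 68 with array weights and from 1 to 6 with each array left out. Without the arrays of number 1, 2 or 3 it was 1, 1 and 2, and with the block 50, 267 and 815. Over the 3 gene lists it was 0, and 1, Car12, with the replicate block; it stayed 0 with each array left out. Pairing by number also brought calls for the markers Gata1, Hbb-y and Hand2, and changed no call of the 8 genes. The number of arrays limits the precision.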
